A study of Saccharomyces cerevisiae with 17 samples.

Results

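The genes of the mating pheromone pathway described here are 9 members given by name: STE12 (YHR084W), FUS3 (YBL016W), KSS1 (YGR040W), FAR1 (YJL157C), SST2 (YLR452C), AGA1 (YNR044W), FIG1 (YBR040W), PRM1 (YNL279W) and FUS2 (YMR232W). They were taken by these systematic names out of 6572 features counted in 8 RNA-seq libraries of budding yeast, and all 9 were among the 6297 genes tested. A table of 22 peaks from a FLAG chromatin immunoprecipitation (ChIP) was read for the same genes, and it lists only AGA1.

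RNA came from brr6-1 cells (strain yDBK168) and from wild-type cells (WT, strain YPH399), each grown in galactose or in glucose, with 2 biological replicates, A and B, per group. Both strains are MATα haploids with the auxotrophic alleles trp1-63, leu2-1 and ura3-52, and both also carry ade2-10 and lys2-801. The brr6-1 strain holds, in addition, LEU2 and HIS3 at the mutant allele, in which a lysine replaces an arginine of a putative zinc finger. Brr6 sits in the membrane of the nuclear envelope. Galactose cultures grew in raffinose (2%) plus sucrose (0.04%) and then spent 2 h in galactose (2%), while glucose cultures held 2% glucose. A galactose difference therefore also spans the raffinose and sucrose that preceded it. The labels name no pheromone treatment in any group. ChIP cells were of another MATα background, W303, and carried a galactose-driven plasmid on pJL602. Their labels give the alleles ade2-1, can1-100, trp1-1 and ura3-1, and alleles of HIS3 and LEU2 whose names begin his3-11 and leu2-3. The plasmid encoded NLS-BRR6N (Brr6N), NLS-brr6∆C4N, which lacks the zinc finger (Brr6deltaC4N), or nothing (empty vector). All ChIP cultures grew in raffinose (2%) plus sucrose (0.04%) and were then moved to galactose (2%) plus sucrose (0.04%) overnight.

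In haploid yeast, a peptide pheromone of the opposite mating type binds a receptor and frees the Gβγ part of a G protein. A kinase cascade on the Ste5 scaffold then activates the MAP kinases Fus3 and Kss1, which release the transcription factor Ste12 from its repressors. Ste12 switches on genes for cell cycle arrest, adhesion, membrane fusion and nuclear fusion. MATα cells make α-factor and the a-factor receptor Ste3, and the pathway keeps a low basal output without pheromone.

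Libraries held 15059271 to 21637381 counts in genes, and 23.4 to 37.5% of reads in and outside genes lay outside them. The targeted gene BRR6 was higher in brr6-1, by 3.14 ± 0.17 (log2) in galactose and 1.81 ± 0.16 in glucose, and a point mutation cannot be read from counts per gene. Of 159 tested genes of chromosome III, 78.6% were higher in brr6-1 in galactose and 83.6% in glucose. None of the 9 members lies on that chromosome, and their annotated spans overlap no other gene of the table. The mating type was read from its own markers. STE3 stood at 87.0 to 129 CPM (CPM here are TMM-scaled, by edgeR) over the 8 libraries, while the a-factor genes MFA1 and MFA2 stayed at or under 2.13 CPM. Of the 5 other a-specific genes, AGA2, ASG7, BAR1 and STE2 stayed at or under 8.07 CPM. STE6, the a-factor exporter, did not follow the low level of the others, at 71.5 and 77.3 CPM in brr6-1 and 76.1 and 69.0 CPM in WT in galactose, and 75.3 and 74.9 CPM in brr6-1 and 51.3 and 52.8 CPM in WT in glucose. In brr6-1 against WT, 0 of the 7 were higher in galactose and 3 in glucose (STE6, BAR1 and ASG7), and none was lower. Among all genes, 8.29% and 16.7% were higher. BAR1 and ASG7 are near the floor, with 16 and 26, and 10 and 9 counts in WT glucose. Among 1014 genes with a mean under 2 log2 CPM, 6.61% were higher in galactose and 21.5% in glucose. MATALPHA1, MATALPHA2 and their silent copies at HML had 0 counts in all 8 libraries. MAT and HML share these sequences, so their reads are not unique, and MFA2 had 0 counts in both WT glucose libraries. HMRA1, of the silent a cassette on chromosome III, had 28 and 28 counts in brr6-1 and 20 and 8 in WT in galactose. In glucose it had 9 and 15 counts in brr6-1 and 2 and 1 in WT. Its brr6-1 effect was 1.09 ± 0.53 in galactose (adjusted p = 0.159) and 2.90 ± 0.83 in glucose (adjusted p = 0.0224), by edgeR's quasi-likelihood test.

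Levels per gene length (RPKM, the CPM divided by gene length in kilobases) spread the members over a wide range. FAR1 was the highest member in each of the 4 groups, at 501 ± 14.6 RPKM in brr6-1 galactose and 430 ± 49.1 in WT galactose, against 257 ± 17.5 in brr6-1 glucose and 292 ± 11.5 in WT glucose (SD, n = 2 each). Those means lie at the 96.7, 94.7, 90.3 and 88.8 percentiles of 5757 features with a length. FUS3, SST2 and KSS1 followed, between 29.6 and 109 RPKM in each group. PRM1 and STE12 came next, between 5.62 and 19.3 RPKM. FUS2, FIG1 and AGA1 stayed at 4.12 RPKM or less, at or under the 7.83 percentile. Of 32 pairs of neighbours in the order of a group, 3 overlapped between their libraries, all among these last genes. These are FIG1 and AGA1 in WT galactose, FIG1 and FUS2 in brr6-1 glucose, and FUS2 and AGA1 in WT glucose.

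**Figure D1:**
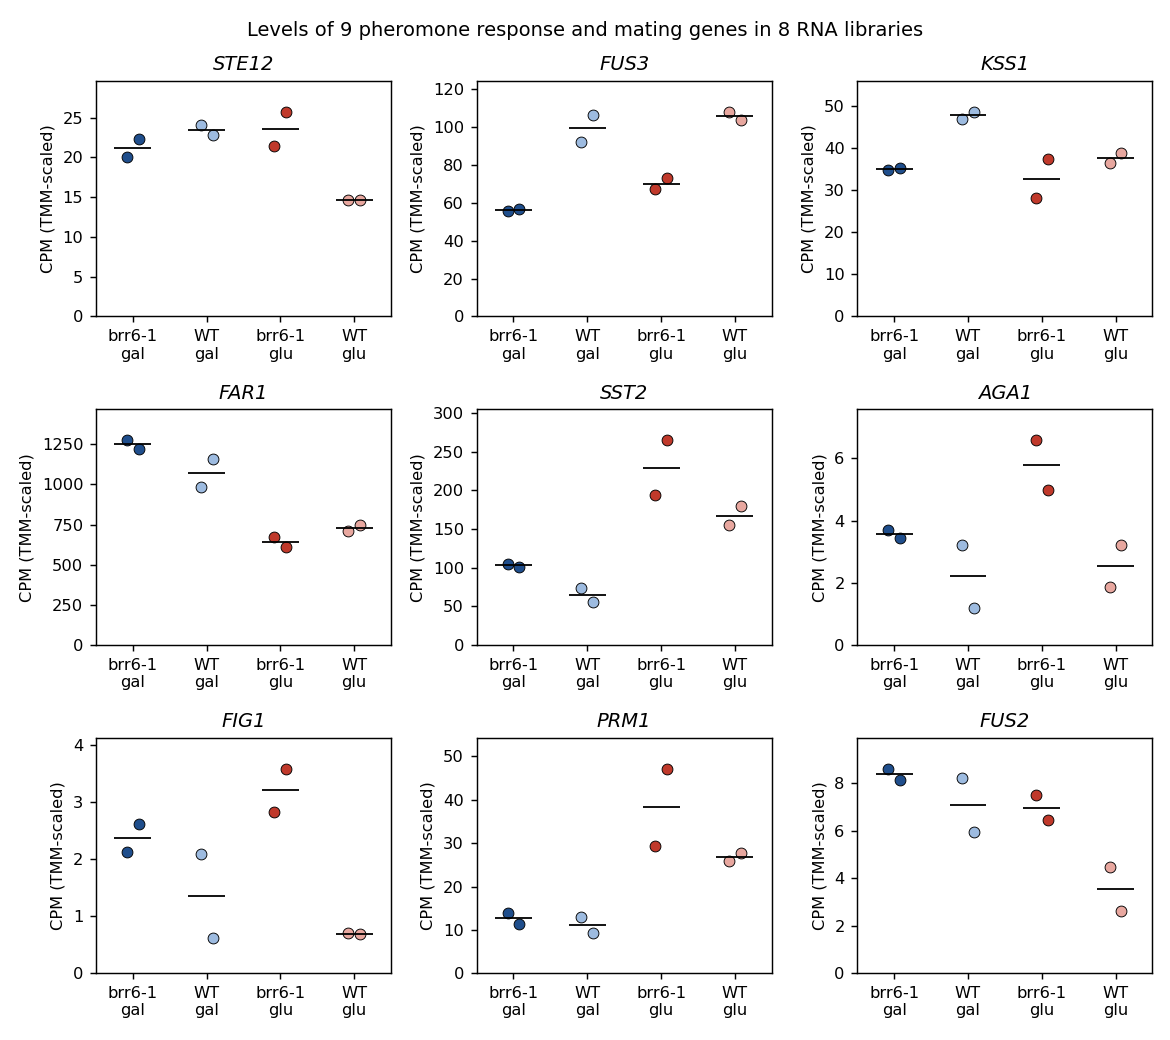
Levels of the 9 members (CPM on a linear axis from 0) in brr6-1 galactose, WT galactose, brr6-1 glucose and WT glucose, with a point for each library and a line at the mean of 2. SST2 and PRM1 are lower in all galactose libraries than in any glucose library, FAR1 is higher in all of them, and FUS3 is lower in both brr6-1 groups.

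The strain comparison asks which members differ between brr6-1 and WT in each medium. Values are log2 fold changes ± standard error from edgeR's quasi-likelihood fit to all 8 libraries (n = 2 per group), with p Benjamini-Hochberg adjusted over all genes tested and a threshold of 0.05. In galactose, 1 member was higher in brr6-1 (SST2) and 2 were lower (FUS3 and KSS1), where 22.6% of all genes passed, 8.29% higher and 14.3% lower. In glucose, 3 members were higher (STE12, FIG1 and FUS2) and 1 was lower (FUS3), where 36.2% of all genes passed, 16.7% higher and 19.5% lower. The members' counts, 3 of 9 and 4 of 9, are thus near the share of all genes. Their median was 0.22 in galactose and 0.52 in glucose, beside 0.01 and 0.03 over all genes. Of all calls 36.7% and 46.1% were higher in brr6-1, or 75.0% and 86.5% with library totals as the scaling, under which 2 and 6 members were higher and 1 and 0 lower. FUS3 was the only member that passed in both media. Libraries of the strains did not overlap for 4 members higher and 3 lower in galactose, where 32.0% and 34.0% of all genes did the same, and for 6 higher and 2 lower in glucose, beside 38.3% and 36.8%.

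FUS3 (chromosome II, 192451 to 193512, R64, plus strand) encodes the MAP kinase that acts most specifically in mating and is required for arrest and fusion. It had 55.4 and 56.8 CPM in brr6-1 against 92.1 and 106 CPM in WT in galactose, and 67.1 and 73.2 CPM in brr6-1 against 108 and 103 CPM in WT in glucose. All 4 brr6-1 libraries lay below all 4 WT libraries. FUS3 fell by 0.82 ± 0.12 in galactose (adjusted p = 0.0013) and by 0.59 ± 0.12 in glucose (adjusted p = 0.0065). The difference between these effects was -0.23 ± 0.17 (adjusted p = 0.432), and galactose against glucose passed in neither strain (-0.32 ± 0.12 in brr6-1, adjusted p = 0.107, and -0.09 ± 0.12 in WT, adjusted p = 0.563). The galactose call held under all 17 alternatives. The glucose call was lost under library totals alone (-0.27, adjusted p = 0.0927) and without WT glucose replicate A (-0.61, adjusted p = 0.0553).

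KSS1 (chromosome VII, 575398 to 576504, plus strand) encodes the second MAP kinase of the pathway, which also serves filamentous growth. It had 34.9 and 35.3 CPM in brr6-1 against 47.1 and 48.8 CPM in WT in galactose, and 28.1 and 37.5 CPM in brr6-1 against 36.5 and 38.9 CPM in WT in glucose. The strains stood apart in galactose and overlapped in glucose. KSS1 was lower by 0.45 ± 0.15 in galactose at an adjusted p of 0.0495, and 13 of 17 alternatives did not keep that call. Among these are the fits without WT glucose A or B, WT galactose A or B, or brr6-1 galactose A or B (adjusted p 0.0728 to 0.205) and library totals alone (-0.21, adjusted p = 0.304). In glucose its value was -0.20 ± 0.15 (adjusted p = 0.295), and between media it was 0.10 ± 0.15 in brr6-1 (adjusted p = 0.718) and 0.35 ± 0.14 in WT (adjusted p = 0.0769).

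STE12 (chromosome VIII, 274174 to 276240, plus strand) encodes the transcription factor at the end of the cascade. It had 20.0 and 22.3 CPM in brr6-1 and 24.1 and 22.9 CPM in WT in galactose, and 21.4 and 25.7 CPM in brr6-1 against 14.6 and 14.6 CPM in WT in glucose. The WT glucose libraries were the low ones, and the other 6 lay between 20.0 and 25.7 CPM. STE12 was higher in brr6-1 by 0.69 ± 0.15 in glucose (adjusted p = 0.0072) and had -0.15 ± 0.14 in galactose (adjusted p = 0.46). STE12 was the only member whose brr6-1 effect differed between media, by -0.84 ± 0.20 (adjusted p = 0.0433), where 5.59% of all genes passed that test, 1.65% higher and 3.94% lower. Between media, galactose over glucose, STE12 had -0.16 ± 0.14 in brr6-1 (adjusted p = 0.523) and was higher by 0.68 ± 0.15 in WT (adjusted p = 0.0038). The glucose strain comparison and the WT medium comparison share the 2 WT glucose libraries. Without WT glucose A or B, neither call passed (adjusted p 0.0775 and 0.0843 for the strains, 0.0582 and 0.0651 for the media). Under cyclic loess the WT medium value was 0.34 (adjusted p = 0.0752). The difference was lost under 9 of 16 alternatives.

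SST2 (chromosome XII, 1039270 to 1041366, minus strand) encodes the regulator of G protein signalling that speeds GTP hydrolysis on the Gα subunit Gpa1 and so turns the pathway down, and its own gene is induced by pheromone. It had 105 and 101 CPM in brr6-1 against 73.4 and 56.2 CPM in WT in galactose, and 193 and 265 CPM in brr6-1 against 155 and 179 CPM in WT in glucose. In each medium both brr6-1 libraries lay above both WT libraries, and every galactose library lay below every glucose library. The brr6-1 effect was 0.67 ± 0.18 in galactose (adjusted p = 0.0225) and 0.45 ± 0.17 in glucose (adjusted p = 0.0632), with a difference of 0.21 ± 0.25 (adjusted p = 0.628). The galactose call was lost without WT glucose A or B (adjusted p = 0.0546 and 0.0547), WT galactose B (0.148) or brr6-1 galactose A or B (0.132 and 0.0795). The glucose value passed under 5 of 17 alternatives, among them without WT galactose A (0.45, adjusted p = 0.0404) and without brr6-1 glucose A (0.66, adjusted p = 0.0269).

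FAR1 (chromosome X, 123836 to 126328, minus strand) encodes the inhibitor that stops the G1 cyclin-dependent kinase and also guides growth toward a partner. Its brr6-1 effect was 0.22 ± 0.14 in galactose (adjusted p = 0.287) and -0.18 ± 0.14 in glucose (adjusted p = 0.321). The first passed under library totals alone (0.46, adjusted p = 0.0227) and cyclic loess (0.35, adjusted p = 0.0456).

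**Figure D2:**
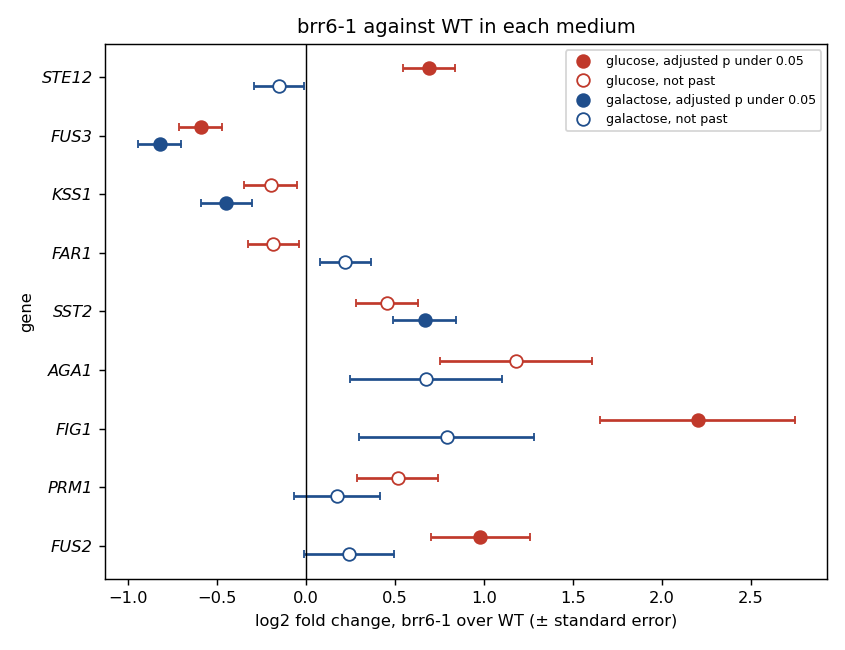
Log2 fold changes of brr6-1 over WT for the 9 members, in galactose and in glucose, with standard errors; filled points passed an adjusted p of 0.05. FUS3 lies below 0 in both media, and STE12, FIG1 and FUS2 pass above 0 in glucose but not in galactose, a difference between media that passed its own test for STE12 alone.

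AGA1, FIG1, PRM1 and FUS2 act at the end of the pathway, in adhesion and fusion, and are induced by pheromone. AGA1 (chromosome XIV, 703699 to 705876, plus strand) encodes the wall anchor of a-agglutinin, made by both mating types on induction. It had 71 and 68 counts in brr6-1 against 71 and 23 in WT in galactose, and 100 and 89 counts in brr6-1 against 29 and 56 in WT in glucose. In CPM these are 3.69 and 3.43 against 3.22 and 1.19, and 6.58 and 4.99 against 1.85 and 3.21. Both brr6-1 libraries lay above both WT libraries in each medium. AGA1 did not pass in galactose (0.67 ± 0.43, adjusted p = 0.274) or in glucose (1.18 ± 0.43, adjusted p = 0.052). The glucose value passed under 5 of 16 alternatives, among them without WT galactose A or B (adjusted p = 0.0128 and 0.0135) and DESeq2's Wald test (adjusted p = 0.0321).

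FIG1 (chromosome II, 316968 to 317864, plus strand) encodes a membrane protein needed for calcium entry and efficient fusion during mating. It had 41 and 52 counts in brr6-1 against 46 and 12 in WT in galactose, and 43 and 64 counts in brr6-1 against 11 and 12 in WT in glucose. In CPM these are 2.13 and 2.62 against 2.09 and 0.62, and 2.83 and 3.59 against 0.70 and 0.69. Both WT glucose libraries and WT galactose B were low, and WT galactose A lay just under the lower brr6-1 galactose library. FIG1 was higher in brr6-1 by 2.20 ± 0.55 in glucose (adjusted p = 0.0131), with 0.79 ± 0.49 in galactose (adjusted p = 0.265) and a difference of -1.41 ± 0.74 between media (adjusted p = 0.262). The glucose call was lost without WT glucose A or B (adjusted p = 0.0885 and 0.0953) and under cyclic loess, which gave 1.19 (adjusted p = 0.063).

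The pair of WT galactose libraries differed 2.71-fold in AGA1 and 3.37-fold in FIG1, and reads outside genes made 37.3% in replicate A and 26.7% in replicate B. Without WT galactose A the brr6-1 effect in galactose was 1.57 for AGA1 (adjusted p = 0.0244) and 1.92 for FIG1 (adjusted p = 0.0153). Without WT galactose B it was 0.14 (adjusted p = 0.835) and 0.18 (adjusted p = 0.775). Without WT galactose B, the difference between media for FIG1 was -2.01 (adjusted p = 0.0344) and its WT medium effect 1.54 (adjusted p = 0.0146). AGA1 and FIG1 are also among the 1014 tested genes with a mean under 2 log2 CPM. The median of those genes was 0.76 in galactose and 1.20 in glucose, and 6.61% and 21.5% of them passed as higher, so the glucose value of AGA1 lies near the median of genes of its abundance. The part of abundance, or of reads outside genes, in these results was not tested.

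PRM1 (chromosome XIV, 110917 to 112902, plus strand) encodes a membrane protein of the contact zone that helps plasma membranes fuse. It had 13.9 and 11.4 CPM in brr6-1 and 13.1 and 9.23 CPM in WT in galactose, and 29.4 and 47.1 CPM in brr6-1 against 25.8 and 27.8 CPM in WT in glucose. The strains overlapped in galactose and stood apart in glucose. The brr6-1 effect was 0.18 ± 0.24 in galactose (adjusted p = 0.623) and 0.52 ± 0.23 in glucose (adjusted p = 0.0974). The glucose value passed without brr6-1 glucose A (0.81, adjusted p = 0.0248) and under library totals alone (0.85, adjusted p = 0.0233).

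FUS2 (chromosome XIII, 736926 to 738959, plus strand) encodes a cytoplasmic protein that acts with Rvs161 in cell fusion. It had 8.62 and 8.16 CPM in brr6-1 and 8.21 and 5.93 CPM in WT in galactose, and 7.5 and 6.45 CPM in brr6-1 against 4.47 and 2.63 CPM in WT in glucose. The WT glucose libraries were again the low ones, and the strains overlapped in galactose. FUS2 was higher in brr6-1 by 0.98 ± 0.28 in glucose (adjusted p = 0.0223), with 0.24 ± 0.25 in galactose (adjusted p = 0.505) and a difference of -0.74 ± 0.38 (adjusted p = 0.25). The glucose call was lost without WT glucose B (0.58, adjusted p = 0.204), without brr6-1 glucose A (0.87, adjusted p = 0.09) and under cyclic loess (0.56, adjusted p = 0.141).

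The medium comparison asks which members differ between galactose and glucose within a strain. In brr6-1, 1 member was higher in galactose (FAR1) and 2 were lower (SST2 and PRM1), where 16% of all genes passed, 8.75% higher and 7.26% lower. In WT, 3 were higher (STE12, FAR1 and FUS2) and 2 lower (SST2 and PRM1), where 44.8% of all genes passed, 24.3% higher and 20.5% lower. The median of the members was -0.32 in brr6-1 and 0.35 in WT, beside 0.04 and 0.10 over all genes. Of all calls 54.7% and 54.3% were higher, or 80.9% and 79.7% with library totals as the scaling. SST2, PRM1 and FAR1 passed in both strains, and these are separate sets of libraries. Libraries of the media did not overlap for 2 members higher in galactose and 5 lower in brr6-1, beside 31.9% and 25.7% of all genes, and for 4 higher and 2 lower in WT, beside 41.2% and 34.7%.

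FAR1 had 1275 and 1223 CPM in galactose against 672 and 610 CPM in glucose in brr6-1, and 986 and 1159 CPM in galactose against 708 and 748 CPM in glucose in WT. All 4 galactose libraries lay above all 4 glucose libraries. FAR1 was higher in galactose by 0.96 ± 0.14 in brr6-1 (adjusted p = 0.0013) and by 0.56 ± 0.14 in WT (adjusted p = 0.0101), with a difference of 0.40 ± 0.20 (adjusted p = 0.242). The brr6-1 call held under all 17 alternatives, and the WT call was lost without WT glucose A or B (adjusted p = 0.124 and 0.0852). The WT value was 0.85 under library totals alone and 1.08 under cyclic loess, with adjusted p of 4.5e-04 and 7.8e-05.

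SST2, whose CPM are given above, fell in galactose by 1.16 ± 0.18 in brr6-1 (adjusted p = 0.0014) and by 1.37 ± 0.18 in WT (adjusted p = 2.7e-04). PRM1 fell by 1.60 ± 0.24 in brr6-1 (adjusted p = 0.0012) and by 1.26 ± 0.24 in WT (adjusted p = 0.0021). For SST2 and PRM1 alike, every galactose library lay below every glucose library. These 4 calls held under all 17 alternatives, with values between -1.95 and -0.91. The difference between strains was -0.34 ± 0.33 for PRM1 (adjusted p = 0.559).

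FUS2 had 0.27 ± 0.26 in brr6-1 (adjusted p = 0.55) and was higher in galactose by 1.00 ± 0.28 in WT (adjusted p = 0.0136). That WT call also rests on the WT glucose libraries, and was lost without WT glucose B (0.59, adjusted p = 0.175), without WT galactose A (0.75, adjusted p = 0.0885) and under cyclic loess (0.52, adjusted p = 0.136). FIG1 had -0.44 ± 0.47 in brr6-1 (adjusted p = 0.593) and 0.97 ± 0.57 in WT (adjusted p = 0.187). AGA1 had -0.70 ± 0.41 in brr6-1 (adjusted p = 0.298) and -0.19 ± 0.45 in WT (adjusted p = 0.747). Within the adhesion and fusion members, the medium values thus ran from a fall in PRM1 in both strains to a WT rise in FUS2.

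**Figure D3:**
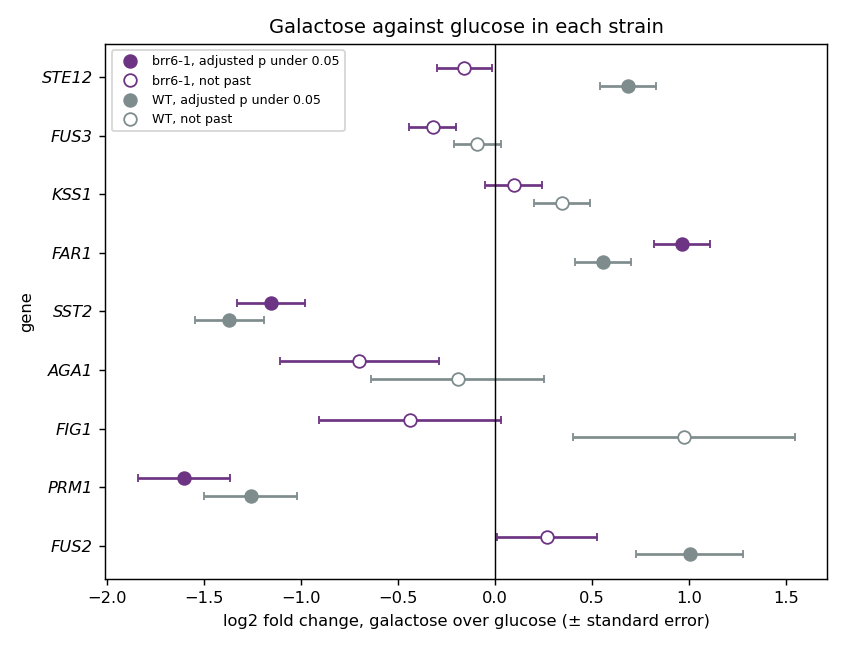
Log2 fold changes of galactose over glucose for the 9 members, in brr6-1 and in WT, with standard errors; filled points passed an adjusted p of 0.05. SST2 and PRM1 lie below 0 and FAR1 above 0 in both strains, and STE12 and FUS2 pass in WT alone, which for STE12 is a tested difference.

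The profile of SST2 over the 8 libraries was closest, among all tested genes, to those of α-specific genes. As a description over libraries that share their groups, its log2 CPM had a Pearson r of 0.994 with MF(ALPHA)1, which encodes α-factor, of 0.989 with MF(ALPHA)2, the second α-factor gene, and of 0.986 with SAG1, the α-agglutinin. MF(ALPHA)1 had 162 and 151 CPM in brr6-1 against 113 and 88.0 CPM in WT in galactose, and 265 and 302 CPM in brr6-1 against 201 and 229 CPM in WT in glucose. SAG1 had 24.4 and 18.2 CPM in brr6-1 against 12.4 and 7.79 CPM in WT in galactose, and 88.5 and 117 CPM in brr6-1 against 43.7 and 45.7 CPM in WT in glucose. The order of the 4 groups is the same in SST2, MF(ALPHA)1 and SAG1, with brr6-1 glucose highest and WT galactose lowest. These genes were picked by their r with SST2 over the same 8 libraries. A shared order therefore largely follows from that choice and is no separate support. In the brr6-1 comparison MF(ALPHA)1 had 0.64 ± 0.15 in galactose (adjusted p = 0.013) and 0.40 ± 0.15 in glucose (adjusted p = 0.0557), and SAG1 was higher by 1.07 ± 0.23 (adjusted p = 0.01) and 1.20 ± 0.21 (adjusted p = 0.0041). Not all α-specific genes did so: 4 of 5 were higher in brr6-1 in galactose and 2 in glucose (8.29% and 16.7% of all genes). STE3 lay below 0 in both media, at -0.07 ± 0.15 and -0.14 ± 0.15, and did not pass (adjusted p = 0.761 and 0.461). Of 5 α-specific genes tested, 3 were lower in galactose in brr6-1 and all 5 in WT (7.26% and 20.5% of all genes), with SAG1 at -2.27 ± 0.22 in brr6-1 and -2.14 ± 0.23 in WT. The 3 genes closest to PRM1 were YDL199C (r = 0.962), HIS4 (0.959) and SAG1 (0.958), and its r with SST2 was 0.963. FAR1 ran against both, with r of -0.936 with PRM1 and -0.84 with SST2.

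**Figure D4:**
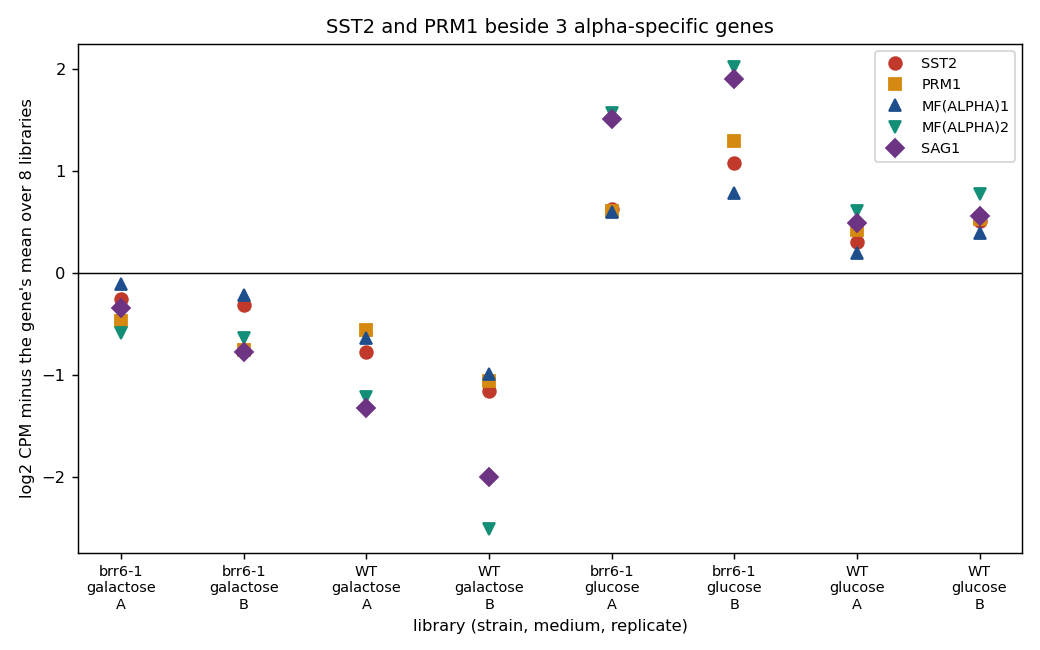
Log2 CPM of SST2, PRM1, MF(ALPHA)1, MF(ALPHA)2 and SAG1 in each of the 8 libraries, less the mean of each gene over the 8. All 5 genes lie below 0 in the 4 galactose libraries and above 0 in the 4 glucose libraries, with the brr6-1 libraries above the WT libraries of the same medium in SST2, MF(ALPHA)1, MF(ALPHA)2 and SAG1. MF(ALPHA)1, MF(ALPHA)2 and SAG1 were picked for their likeness to SST2 over these same libraries.

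The other members each had other nearest genes. The closest to STE12 was MAM3 (r = 0.982), to FUS3 ISU2 (0.993) and DIC1 (0.993), to KSS1 ERG9 (0.985) and to FAR1 UPS2 (0.981). AGA1 was closest to YIL082W (0.956), FIG1 to YHR193C-A (0.983) and FUS2 to YNR064C (0.986). Among members, AGA1 and FIG1 had an r of 0.821, STE12 and FUS2 an r of 0.773, and FUS3 and FIG1 an r of -0.805. These values are descriptions over 8 libraries that fall into 4 groups.

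Beyond the members, 48 further genes of the pathway were read from receptor to nuclear fusion, all of them tested. In brr6-1 against WT, 9 were higher and 2 lower in galactose, and 15 were higher and 2 lower in glucose. Of all genes, 8.29% were higher and 14.3% lower in galactose, and 16.7% and 19.5% in glucose. The median of the 48 was 0.02 in galactose and 0.26 in glucose. Of these genes, 6 lie on chromosome III (STE50, KAR4, FUS1, FIG2, RVS161 and BIK1), and all 6 were higher in both media. Without them 3 of 42 were higher in galactose and 9 in glucose, and 2 were lower in each medium. The higher counts are near the shares of all genes, and the lower counts are under them. In the fit without chromosome III, 400 and 950 of 6138 genes were higher in galactose and glucose, and 814 and 1147 lower. The same shares of all genes are the background for the shorter lists that follow.

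Of the 5 receptor and G protein genes, none passed between strains in either medium (median -0.17 in galactose and -0.18 in glucose). Between media, GPA1, the Gα subunit on which Sst2 acts, fell in galactose by 0.48 ± 0.13 in brr6-1 and 0.73 ± 0.13 in WT (adjusted p = 0.0268 and 0.0014). STE4, the Gβ subunit, fell by 0.66 ± 0.15 and 0.76 ± 0.15 (adjusted p = 0.015 and 0.003). In WT the receptor STE3 fell too (-0.40 ± 0.15, adjusted p = 0.0495). Of the 8 cascade and polarity genes, STE50, an adaptor of Ste11 on chromosome III, was higher in brr6-1 by 1.16 ± 0.12 in galactose and 0.94 ± 0.12 in glucose (adjusted p = 1.7e-04 and 0.0011). STE11, the kinase at the top of the cascade, was higher in galactose alone by 0.42 ± 0.11 (adjusted p = 0.0244), with 0.20 ± 0.11 in glucose (adjusted p = 0.178) and a difference that did not pass (adjusted p = 0.428). The scaffold STE5 had 0.22 ± 0.12 and -0.14 ± 0.12.

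Of the 5 partners of Ste12, TEC1, which directs Ste12 to filamentous growth genes, was higher in brr6-1 in glucose by 0.96 ± 0.29 (adjusted p = 0.0266) and in galactose against glucose in WT by 0.94 ± 0.28 (adjusted p = 0.0218). These comparisons share the WT glucose libraries, as for STE12. KAR4, which acts with Ste12 on nuclear fusion genes, had 195 and 168 CPM in brr6-1 against 92.8 and 112 CPM in WT in galactose, and 286 and 305 CPM in brr6-1 against 208 and 227 CPM in WT in glucose. KAR4 was the gene of this list with the medium pattern of SST2, lower in galactose by 0.70 ± 0.14 in brr6-1 (adjusted p = 0.0057) and 1.09 ± 0.14 in WT (adjusted p = 2.3e-04). It lies on chromosome III, whose genes were mostly higher in brr6-1 than in WT. Between media, 6.29% of that chromosome's genes were higher in galactose in brr6-1 and 25.8% in WT, beside 8.75% and 24.3% of all genes. The repressors of Ste12 had -0.10 ± 0.15 (DIG1) and 0.35 ± 0.29 (DIG2) in galactose, and 0.35 ± 0.15 and 0.73 ± 0.32 in glucose, none of which passed (adjusted p 0.0889 to 0.636). Of the 5 other negative regulators, 3 were higher in brr6-1 in glucose (PTP2, BAR1 and ASG7) and none in galactose. BAR1 and ASG7 are the a-specific genes with few counts described above. MSG5 and PTP3 did not pass in glucose (0.095 ± 0.163 and -0.094 ± 0.178, adjusted p = 0.659 and 0.691). PTP2, a tyrosine phosphatase of MAP kinases, had 1.01 ± 0.20 in glucose (adjusted p = 0.0054) and 0.03 ± 0.18 in galactose (adjusted p = 0.915). For PTP2 the difference between media had an adjusted p of 0.0601.

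Of 17 other pheromone-induced genes, 4 were higher and 2 lower in brr6-1 in each medium. FUS1, a fusion gene often used as the pathway's reporter, had 17.2 and 12.9 CPM in brr6-1 against 5.03 and 1.91 CPM in WT in galactose, and 19.7 and 20.8 CPM in brr6-1 against 3.83 and 3.60 CPM in WT in glucose. The strains did not overlap, and FUS1 was higher by 2.10 ± 0.33 in galactose (adjusted p = 0.0019) and 2.45 ± 0.34 in glucose (adjusted p = 0.0014). FUS1 and the agglutinin-like FIG2 (2.14 ± 0.42 and 2.51 ± 0.45) lie on chromosome III, while PRM2, a pheromone-regulated membrane protein gene with 1.47 ± 0.31 and 1.96 ± 0.30 (adjusted p = 0.0095 and 0.0022), does not. PRM2 was higher in all 4 brr6-1 libraries (5.35 and 6.65 CPM in galactose, 10.5 and 12.9 in glucose) than in any WT library (2.90 and 1.39, 2.94 and 3.09). PRM10 was lower in both media (-0.48 ± 0.14 and -0.46 ± 0.14). Between media, PRM9 fell in galactose by 1.20 ± 0.18 in brr6-1 and 1.56 ± 0.17 in WT, like PRM1, while PRM4 was higher by 1.17 ± 0.24 and 1.95 ± 0.26. In all, 1 of these 17 was higher and 4 lower in galactose in brr6-1, and 1 higher and 3 lower in WT, where all genes had 8.75% higher and 7.26% lower in brr6-1, and 24.3% and 20.5% in WT.

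Of 8 other fusion and karyogamy genes, 2 were higher in brr6-1 in galactose and 5 in glucose. RVS161, the partner of Fus2, was higher by 0.64 ± 0.12 in galactose and 0.51 ± 0.12 in glucose, and lies on chromosome III. SPA2 and BNI1, of the polarisome that directs growth toward a partner, were higher in glucose (0.59 ± 0.12 and 0.42 ± 0.14, adjusted p = 0.0074 and 0.0433). They had 0.03 ± 0.12 and -0.04 ± 0.14 in galactose (adjusted p = 0.889 and 0.869). The difference between media passed for neither (adjusted p = 0.084 and 0.191). Both were also higher in galactose than in glucose in WT (0.63 and 0.44, adjusted p = 0.0027 and 0.0277), a comparison that shares the WT glucose libraries. KAR3, a kinesin of nuclear fusion, was higher in glucose by 0.56 ± 0.14 (adjusted p = 0.0138) and had 0.31 ± 0.14 in galactose (adjusted p = 0.129).

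The ChIP table was read for where FLAG-tagged Brr6 fragments were enriched near the members. AGA1 is the member listed, at a peak on chromosome XIV from 704520 to 704640, which spans 120 bases and lies inside the gene, 821 to 941 bases after its start. The other 8 members are listed at none of the 22 peaks. The authors' mean signal there was 210 and 192 in the Brr6N precipitates, with 166 in total extract, 116 and 129 for Brr6deltaC4N, with 117, and 79.5 and 89.8 for empty vector, with 141. The 6 precipitates thus rank Brr6N, Brr6deltaC4N and empty vector with no overlap. As the authors' fold over total extract, these are 1.27 and 1.16 for Brr6N, 0.99 and 1.1 for Brr6deltaC4N and 0.56 and 0.64 for empty vector. Brr6N and Brr6deltaC4N lay above empty vector in both precipitates, and Brr6N lay above Brr6deltaC4N, as held at 86.4%, 54.5% and 59.1% of the 22 peaks.

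The mean fold for Brr6N at AGA1 (1.21 ± 0.08, SD, n = 2) was below the median of the 22 peaks (1.52), that for Brr6deltaC4N was 1.05 ± 0.08 beside 1.04, and that for empty vector 0.60 ± 0.05 beside 0.71. Brr6N stood at 2.02 times the empty vector fold, and by this ratio AGA1 ranked 15 of 22. No test was run on these folds, since an exact permutation test of 2 precipitates against 2 cannot pass the threshold and the letters a and b are not tied to separate cultures. The mating-type genes of the other cell type appear in the same list. Peaks that list STE2, MFA1, MFA2, BAR1 or STE6 number 8, with mean Brr6N folds of 0.94 to 2.16. Brr6N lay above empty vector at all 8 and above Brr6deltaC4N at 4, beside 86.4% and 59.1% of the 22 peaks. The peak that lists HMRA1 and HMRA2 is not among these 8. Its mean Brr6N fold was 0.49, or 1.085 times the empty vector fold. There Brr6N lay above empty vector but not above Brr6deltaC4N. RNA and ChIP came from different strains, after 2 h and overnight in galactose in turn, so the AGA1 peak and the AGA1 counts above cannot be joined sample by sample.

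**Figure D5:**
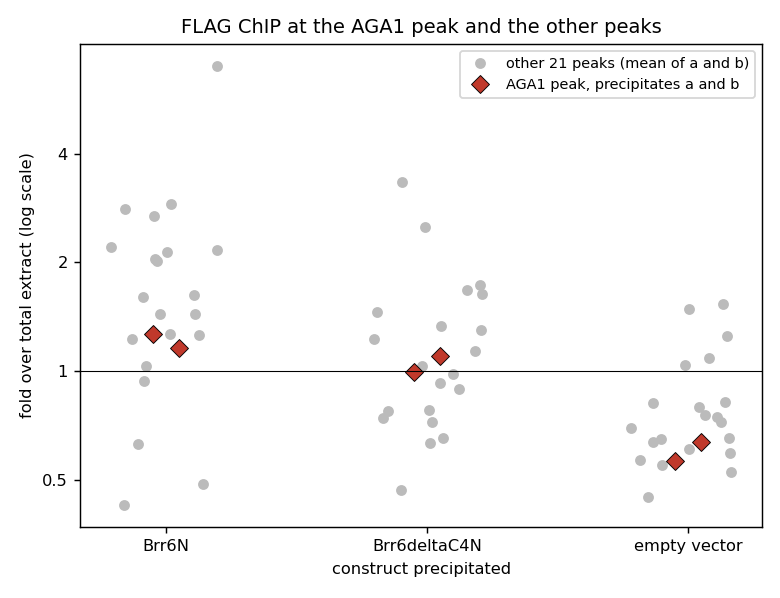
Fold over total extract (log axis) at the AGA1 peak in both precipitates of Brr6N, Brr6deltaC4N and empty vector (diamonds), beside the mean fold of the other 21 peaks (grey points). The AGA1 values lie at 1.27 and 1.16, 0.99 and 1.1, and 0.56 and 0.64.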

How the data were processed

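Each RNA library was deposited as raw counts of reads in each gene, made with cutadapt, TopHat and HTSeq on R64, per the submitters' processing notes. How HTSeq treated strand is not given in the sources used, so antisense reads cannot be told apart. Of 6572 features, 5898 matched the R64 gene table. Features passing filterByExpr (minimum count 10) numbered 6297. They were scaled by TMM and fitted with edgeR's quasi-likelihood method, 8 libraries in 4 groups, 4 residual degrees of freedom. Standard errors are the log2 fold change divided by the root of F. Adjusted p is Benjamini-Hochberg within each of 5 comparisons. RPKM used gene lengths of R64. The authors' deposited peaks carry a mean and a maximum signal and a fold ratio over total extract, per the file headers, with Bowtie 1.1.2 named in the processing notes. No source used here names the peak caller. The members, gene lists and tests were chosen with earlier results of these data known. Genes named are the members, the 3 genes most like each of them, and genes of the pathway lists. Replicate letters were not treated as pairs in the main fit. Deviations of libraries with the same letter had correlations of -0.043 to 0.38 between groups, which cannot show whether letters pair samples. Alternatives were DESeq2 size factors, library totals, cyclic loess, 2 other filters, DESeq2's Wald test, a replicate block, 4 libraries alone, no chromosome III, and each library left out. The fit was tested on simulated data. R 4.3.3, edgeR 4.0.16, limma 3.58.1, DESeq2 1.42.0, Python 3.11.15 and matplotlib 3.10.9 were used.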

Additional observations from a re-analysis of the deposited data

Results flagged for a closer look

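STE12 was flagged because its brr6-1 effect differed between media in the test of that difference. The brr6-1 effect in galactose minus that in glucose was -0.84 ± 0.20 on the log2 scale (edgeR's quasi-likelihood test, adjusted p = 0.0433). The 2 WT glucose libraries were lower than the other 6. Without WT glucose A the difference was -0.79 (adjusted p = 0.209), and without WT glucose B it was -0.79 (adjusted p = 0.251). It kept its sign under all 16 alternatives and passed under 7 of them.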

How the results depend on the processing

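No result changed direction past its threshold. The count of members called for the difference between media (1) was 0 under DESeq2 size factors, under cyclic loess and under the replicate block, where STE12 had an adjusted p of 0.0524. The replicate block changed no other member's call. Members called between media in WT (5) were 3 under cyclic loess. DESeq2's Wald test called 617 genes in place of 352 for the difference. With a library left out, members called ran from 1 to 4 for brr6-1 in galactose, 1 to 6 in glucose, 2 to 6 between media in WT and 0 to 2 for the difference, and were 3 between media in brr6-1 throughout. Over all genes the calls ran from 423 to 1801, 516 to 2694, 1548 to 3034, 3 to 816 and 492 to 1189, in that order. A lone library left in a group was taken to vary like the others. Of 746 values of single members under an alternative, 678 kept their side of the threshold, 23 newly passed and 45 were lost. With library totals as the scaling, the median over all genes moved by 0.24 for brr6-1 in galactose, 0.33 in glucose, 0.21 between media in brr6-1 and 0.30 in WT. The share of higher calls was then 75.0, 86.5, 80.9 and 79.7%, in place of 36.7, 46.1, 54.7 and 54.3% (18.4% in place of 29.5% for the difference), and 6 members in place of 3 were higher in brr6-1 in glucose. At the AGA1 peak, dividing by the empty vector precipitates gave 2.38 for Brr6N and 1.45 for Brr6deltaC4N, and maximum signal gave 0.68 for empty vector. A motif search of promoters was not run. Counts of 11 to 100 limit AGA1 and FIG1.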

Other observations

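Filamentous growth genes, which Ste12 controls together with Tec1, were also read. Between galactose and glucose none of 6 passed in brr6-1, while 4 were higher and 0 lower in galactose in WT, beside 16% of all genes called either way in brr6-1 and 24.3% higher in WT, and the difference between strains passed for none. CLN1, a G1 cyclin gene, had 0.52 ± 0.18 in brr6-1 (adjusted p = 0.078) and 1.22 ± 0.18 in WT (adjusted p = 6.2e-04), by edgeR's quasi-likelihood test. PGU1, which encodes a secreted pectin-cleaving enzyme, had 0.43 ± 0.38 in brr6-1 (adjusted p = 0.513) and 1.73 ± 0.41 in WT (adjusted p = 0.0066). Its WT galactose libraries stood apart, with 8.43 CPM in A and 3.71 CPM in B, against 1.85 and 1.83 CPM in WT glucose. In brr6-1 against WT, 2 of the 6 were higher and 0 lower in glucose, and 0 higher and 1 lower in galactose. Of all genes, 16.7% were higher and 19.5% lower in glucose, and 8.29% and 14.3% in galactose. FLO11, the adhesin of filaments, was higher in brr6-1 in glucose by 1.52 ± 0.50 (adjusted p = 0.0385). It had 54 and 34 counts there against 18 and 13 in WT, and 0.89 ± 0.45 in galactose (adjusted p = 0.179). Among 1014 genes with a mean under 2 log2 CPM, 21.5% were higher in glucose, with a median of 1.20. DDR48, a stress protein gene, was lower in brr6-1 in galactose by 1.51 ± 0.32 (adjusted p = 0.0083), at 6.59 and 7.25 CPM against 26.7 CPM in WT galactose A and 12.8 CPM in WT galactose B. The PGU1 and DDR48 values were not refitted without WT galactose A.

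Of 8 haploid-specific genes, FUS3 among them, 2 were lower in brr6-1 in galactose and 3 in glucose, and none was higher. Of all genes 14.3% and 19.5% were lower. RME1, a repressor of meiosis, was lower in both media (-1.01 ± 0.16 and -0.82 ± 0.15) and lower in galactose than in glucose in both strains (-0.85 ± 0.16 in brr6-1 and -0.66 ± 0.15 in WT). Of the silencing genes SIR1 to SIR4, SIR3 was higher in brr6-1 in galactose (0.44 ± 0.14, adjusted p = 0.0437) and in glucose (0.71 ± 0.14, adjusted p = 0.0055). SIR2 was higher in glucose (0.56 ± 0.18, adjusted p = 0.0329) and had -0.15 ± 0.17 in galactose (adjusted p = 0.537), a difference that did not pass (-0.71, adjusted p = 0.106). SIR2 was also higher in galactose than in glucose in WT (0.68, adjusted p = 0.0103), a comparison that shares the WT glucose libraries. SIR1 and SIR4 passed in neither medium. Among all genes, 8.29% were higher in galactose and 16.7% in glucose.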
